A study of Mus musculus with 3 samples.

Results

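The 41 genes described here encode proteins that license origins of DNA replication, open and copy the duplex at replication forks, supply deoxynucleotides and load new nucleosomes. They were taken by symbol from the 17857 genes of the deposited count table, and all 41 were present. Before S phase, the origin recognition complex with Cdc6 and Cdt1 loads the MCM helicase onto DNA, a step called licensing. Cdc45 and the GINS complex then turn the loaded helicase into a moving fork, at which primase and DNA polymerases copy the strands. Geminin blocks relicensing, so that each origin fires once per cycle. Many of these genes are transcribed under E2F factors as cells leave quiescence. In lymph nodes, resting lymphocytes form most of the tissue, and activated lymphocytes are among the usual cycling cells.

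RNA was measured in cells sorted from nodes that drained B16F10 melanomas, a mouse line grown in C57BL/6J mice for 14 days with no treatment. The sort took Ly6c+ c-kit+ cells without CD11c. The 3 libraries form 1 group, labelled ckit_pos, from repeat experiments on pooled nodes, and no control population was analysed here. The number of mice per pool is not stated in the labels. The p-values test each gene's level against a reference level, given the spread between these 3 libraries. Nothing else separates the pools by animal, so that spread may be technical.

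The libraries held 9077195 to 13885509 counts, and the 41 genes took a share of 0.168% (95% Wilson interval 0.165% to 0.171%) of replicate 1. They took 0.142% (0.140% to 0.144%) of replicate 2, and their share of replicate 3 was 0.127% (0.125% to 0.129%). Intervals cover counting error only. Levels are normalised read counts (CPM, counts scaled by library total and TMM factor) for replicates 1, 2 and 3, or their mean ± SD (n = 3). Levels of different genes are compared as CPM per kilobase of gene length. Checked against the sort label, Kit, which encodes c-kit, stood at 9.83, 5.35 and 5.92 CPM, and the CD11c gene Itgax at 26.9, 43.2 and 24.0 CPM. Per kilobase, Kit (mean 1.36, the 33.7th percentile of genes tested) lay below Itgax (mean 7.80) in every library, although the sort took c-kit+ cells without CD11c. The Ly6c genes Ly6c1 (19.1, 4.28 and 17.6 CPM) and Ly6c2 (11.5, 121 and 41.2 CPM) were present in all libraries. T cell markers summed to 3368, 4266 and 4285 CPM. In bulk RNA, fewer cells of a type and less RNA per cell cannot be told apart.

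The replication genes were present at low to middle levels, with Rpa1, most of the MCM2-7 helicase and Rfc1 at the top. In edgeR's quasi-likelihood test, 40 of 41 lay above 1 CPM at an adjusted p under 0.05, where 68.6% of the 15490 genes tested did. Above 50 CPM lay 8 of 41, against 19.9% of all genes tested, and 26 of 41 lay below 50 CPM, against 66.7%. The other 7 were not separated from 50 CPM, against 13.4%. The shares of the list above and below 50 CPM were thus near those of all genes. Per kilobase, the median gene of the list stood at 9.99, 8.06 and 8.82 CPM per kilobase in replicates 1, 2 and 3. The median of all genes tested stood at 5.36, 5.36 and 5.21, and that of the genes above 1 CPM at 10.9, 12.2 and 11.9. The means ran over a wide range, from 1.18 CPM per kilobase for Orc1 to 45.8 for Rpa1.

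**Figure D1:**
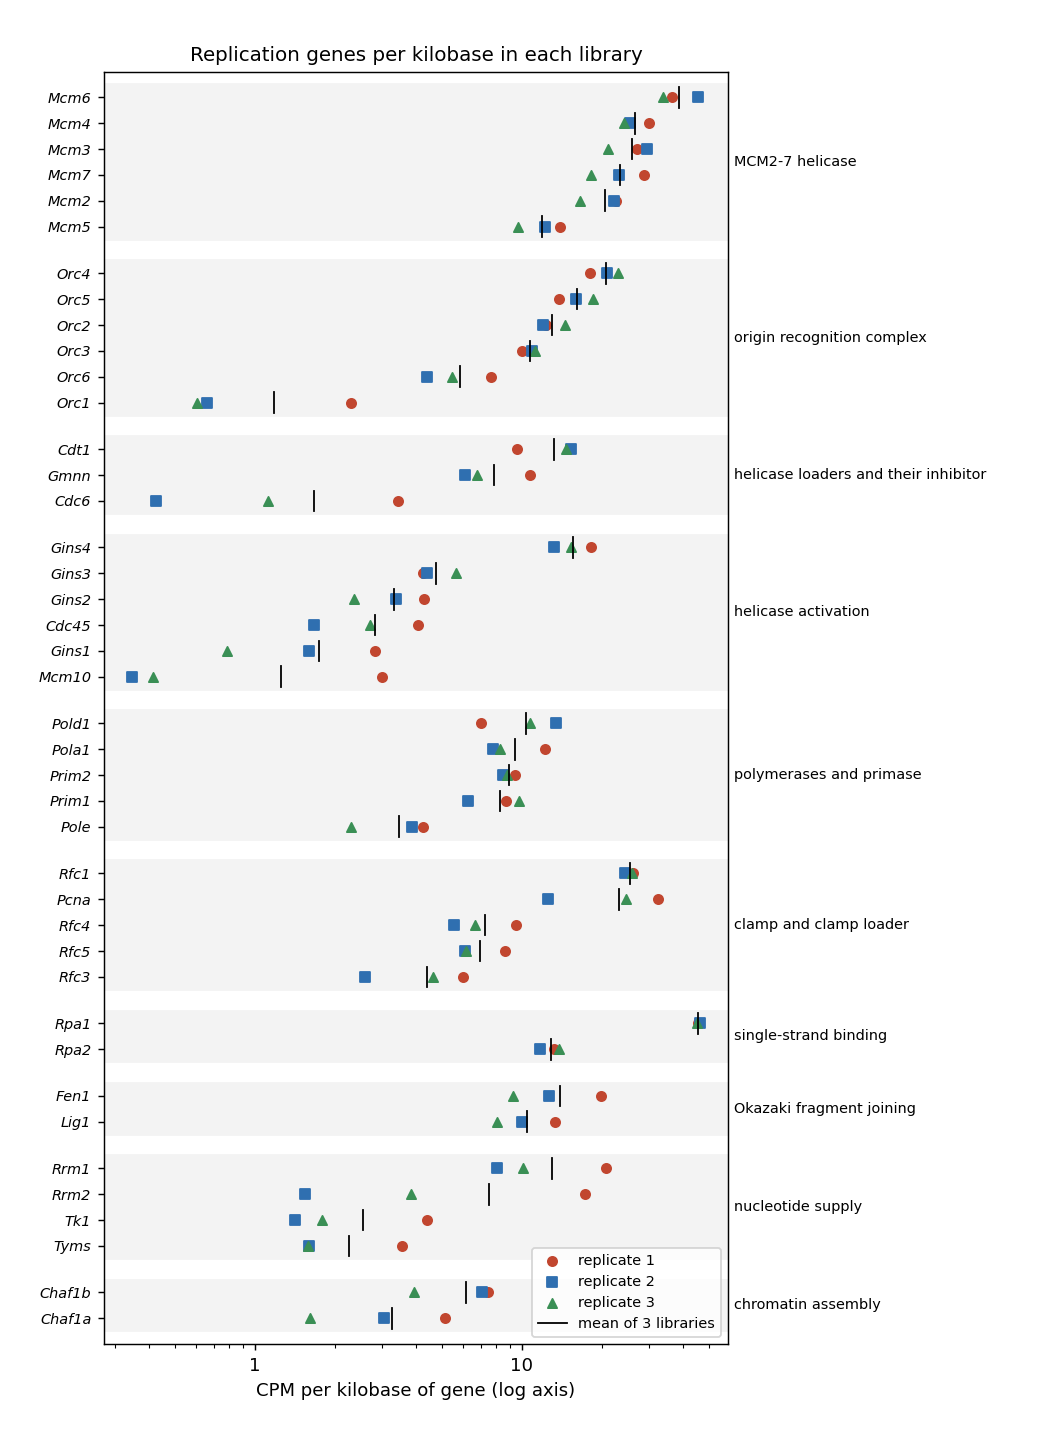
CPM per kilobase of gene length (log axis) for each of the 41 genes, grouped by role, with 1 symbol per library and a black bar at the mean of the 3 libraries. Rpa1 (45.8) and Mcm6 (38.6) are highest, Orc1 (1.18) and Mcm10 (1.25) lowest, and the libraries lie far apart for Cdc6, Mcm10 and Rrm2.

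The 6 subunits of the MCM2-7 ring, the ATPase that unwinds DNA ahead of the fork, were among the highest members, apart from Mcm5, and their highest library was a median of 1.38 times the lowest. Their median stood at 27.8, 24.2 and 19.6 CPM per kilobase (23.9 ± 4.10). Mcm6 was highest, with 106, 132 and 97.6 CPM (38.6 ± 6.16 CPM per kilobase), at the 89.8th percentile of genes tested per kilobase. Mcm4 was read at 108, 90.9 and 86.6 CPM and Mcm3 at 77.6, 84.9 and 60.7 CPM. Replicate 3 was lowest for both. Mcm2 was read at 75.9, 74.6 and 55.7 CPM and Mcm7 at 68.8, 55.4 and 43.6 CPM. Mcm5 was lowest of the ring, with 47.6, 41.6 and 33.1 CPM (11.9 ± 2.12 CPM per kilobase). Replicate 3 held the lowest value of all 6 subunits.

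The 6 proteins assemble in equal numbers, but their RNA did not stand at equal levels per kilobase. Mcm6 was the highest and Mcm5 the lowest subunit in each of the 3 libraries, at ratios of 2.63, 3.74 and 3.48 per kilobase. The other 4 lay between 20.4 and 26.5 CPM per kilobase on average, with SDs of 3.10 to 5.26, and neighbours in that order differed by less than these SDs. Mcm6, Mcm4, Mcm3 and Mcm2 lay above 50 CPM (edgeR adjusted p = 2.48e-04, 5.18e-04, 0.00822 and 0.0220). Mcm2 no longer passed without replicate 1 (adjusted p = 0.0859) or without replicate 2 (0.0524). Mcm7 (0.377) and Mcm5 (0.130) were not separated from 50 CPM. In the mm10 build, Mcm6 (Entrez gene 17219) spans chromosome 1, 128331575 to 128359705, and Mcm5 (Entrez gene 17218) spans chromosome 8, 75109468 to 75128439. Exons of Mcm7 overlap those of Ap4m1 and Cops6 on the opposite strand over 7.25% and 1.45% of their bases.

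Within the origin recognition complex, the platform that marks origins, Orc4 was highest and Orc1 lowest in every library. The median of the complex was steady, at 11.2, 11.4 and 12.8 CPM per kilobase (11.8 ± 0.882). Orc4 was read at 89.6, 104 and 114 CPM (20.6 ± 2.43 CPM per kilobase) and Orc3 at 63.1, 68.8 and 70.6 CPM (10.7 ± 0.624). Orc5 was read at 28.2, 32.9 and 38.0 CPM and Orc2 at 41.6, 40.4 and 48.7 CPM. Replicate 3 was the highest library for each of these 4 genes. Orc6, which joins the complex loosely, was read at 12.7, 7.27 and 9.04 CPM. Orc1, the subunit whose level varies with the cell cycle in mammals, was read at 6.87, 2.00 and 1.82 CPM (1.18 ± 0.950 CPM per kilobase). It was the lowest of all 41 genes per kilobase. The ratio of Orc4 to Orc1 per kilobase was 7.90, 31.4 and 37.8.

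Orc4 (edgeR adjusted p = 3.67e-04) and Orc3 (0.0185) lay above 50 CPM, Orc5 (0.0148), Orc6 (4.49e-04) and Orc1 (0.00263) below it, and Orc2 (0.244) was not separated. Orc3 and Orc5 lost these calls without replicate 3 (0.140 and 0.0641). Calls against 50 CPM take no account of gene length, and per kilobase Orc5 exceeded Orc3 in every library. Orc1 lay above 1 CPM with all libraries (0.00526) but not without replicate 1 (0.168). Exons of Nif3l1 on the opposite strand overlap 29.8% of the Orc2 exon bases, and a noncoding transcript, Gm12743, overlaps 10.8% of those of Orc1. The sources used here do not say whether counting used strand, so reads of such pairs may be mixed. In all, 14 of the 41 genes have an exon overlap on the opposite strand, 7 of them over 10% or more of their exon bases. Orc1 (Entrez gene 18392) spans chromosome 4, 108575705 to 108616030, and Orc4 (Entrez gene 26428) spans chromosome 2, 48902824 to 48952902.

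Of the proteins that load the helicase, Cdt1 and Cdc6 stood in opposite orders between libraries, with no test of that order. Cdt1 was read at 20.9, 33.4 and 32.1 CPM, lowest in replicate 1. Cdc6, the ATPase that completes the loader, was read at 16.2, 2.00 and 5.24 CPM from 153, 28 and 69 counts. The exact Poisson intervals for Cdc6, which cover counting error only, were 13.7 to 18.9, 1.33 to 2.89 and 4.08 to 6.63 CPM. They do not overlap. Cdc6 (Entrez gene 23834) spans chromosome 11, 98907709 to 98923942. Gmnn, which encodes geminin, the inhibitor that binds Cdt1, was read at 10.5, 5.99 and 6.61 CPM, highest in replicate 1. The ratio of Cdt1 to Gmnn per kilobase was 0.892 in replicate 1, 2.48 in replicate 2 and 2.16 in replicate 3. All 3 genes lay above 1 CPM and below 50 CPM (edgeR adjusted p = 0.00864 for Cdt1, 0.00626 for Cdc6 and 4.78e-04 for Gmnn against 50 CPM).

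The factors that activate the loaded helicase were lower per kilobase than every subunit of the ring, apart from Gins4. Gins4, a subunit of the GINS complex, was read at 24.7, 18.0 and 20.9 CPM (15.5 ± 2.48 CPM per kilobase), and its partner Gins3 at 10.3, 10.6 and 13.6 CPM (4.76 ± 0.760). Gins2 was read at 4.44, 3.49 and 2.43 CPM and Gins1 at 3.28, 1.85 and 0.911 CPM (1.73 ± 1.03 CPM per kilobase). The 4 subunits form 1 complex in equal numbers, and they stood 6.42, 8.25 and 19.5 times apart between Gins4 and Gins1 per kilobase. Cdc45, another part of the active helicase, was read at 8.77, 3.57 and 5.77 CPM. Gins1 was the member not separated from 1 CPM (edgeR adjusted p = 0.206), and its counts were 31, 26 and 12. Exons of Gse1 on the opposite strand overlap 67.3% of the Gins2 exon bases. That share is taken over 4097 annotated exon bases, and the deposited length of Gins2 is 1038 bases.

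Mcm10, which joins the helicase at the time of firing and is no part of the ring, differed from the ring in both level and spread. It was read at 10.5, 1.21 and 1.44 CPM from 99, 17 and 19 counts, with Poisson intervals of 8.50 to 12.7, 0.706 to 1.94 and 0.869 to 2.25 CPM. Replicate 1 stood apart from the others, which overlapped each other. The ratio of Mcm6 to Mcm10 per kilobase was 12.2, 131 and 81.5. Per kilobase Mcm10 lay at 2.99, 0.347 and 0.413 CPM, where olfactory receptor genes, which leukocytes rarely use, lay at 0.255, 0.0224 and 0.0525. Mcm10 lay above 1 CPM with all libraries (edgeR adjusted p = 0.00501), but not without replicate 1 (0.661) nor in limma (0.105). It spans chromosome 2, 4990724 to 5012791 (Entrez gene 70024).

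**Figure D2:**
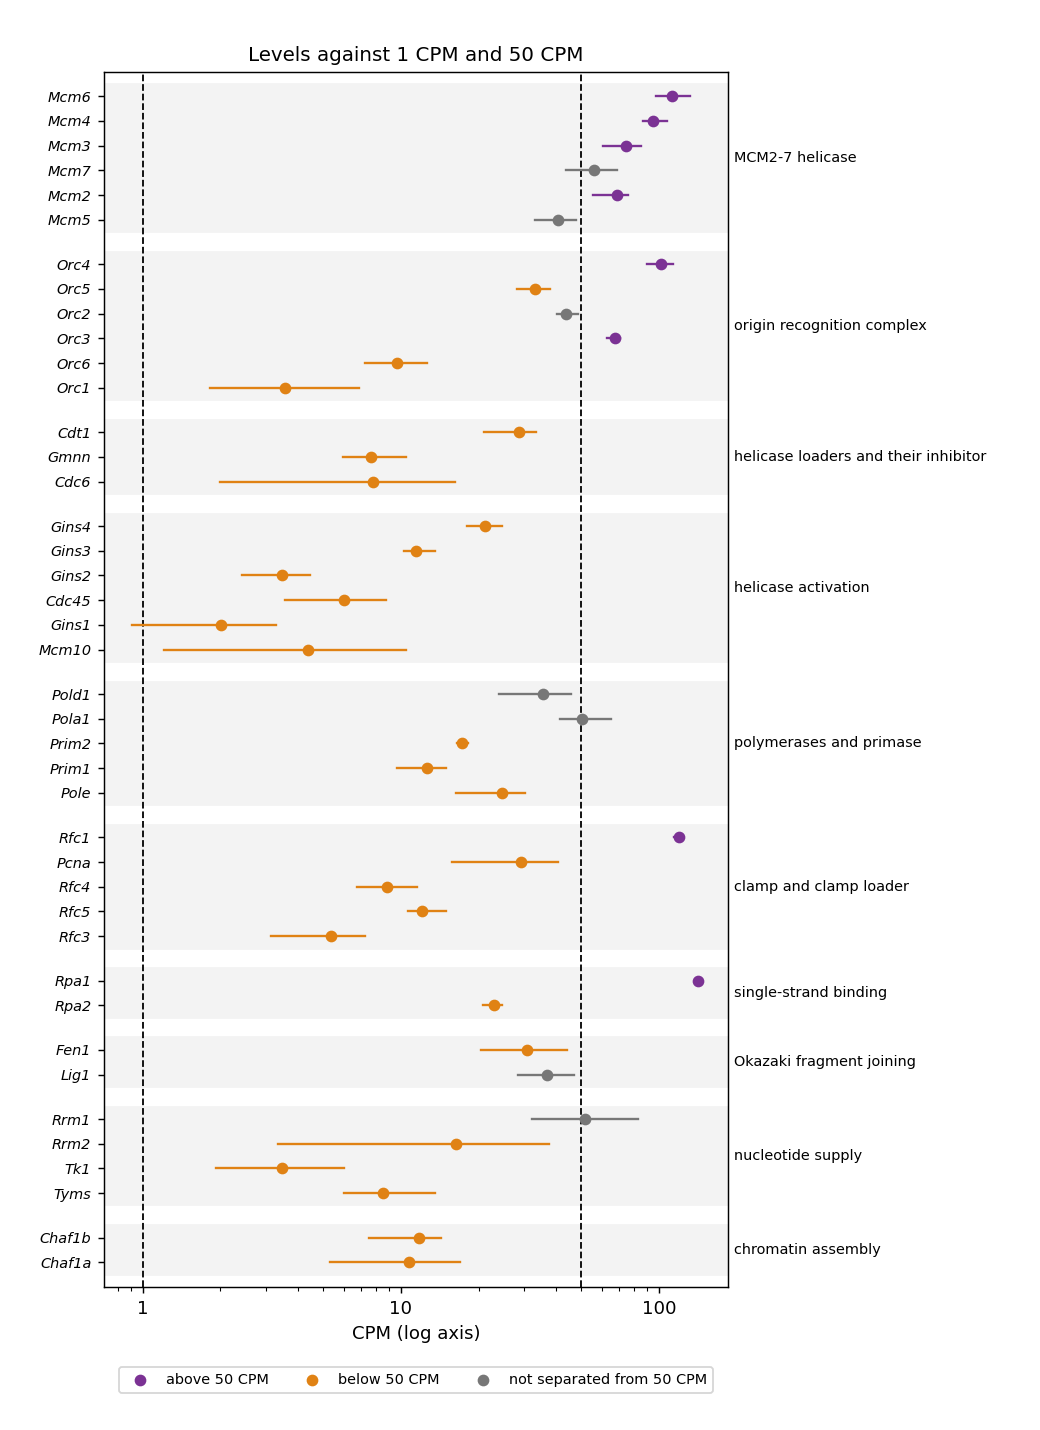
Mean CPM (point) and the range of the 3 libraries (line) for each gene on a log axis, coloured by edgeR's call against 50 CPM, with dashed lines at 1 and 50 CPM. The 8 genes above 50 CPM are Mcm2, Mcm3, Mcm4, Mcm6, Orc3, Orc4, Rfc1 and Rpa1, and the range of Gins1 crosses 1 CPM.

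The promoters of 5 genes are shown because the genes span the range from even to uneven between libraries. RefSeq windows of 250 bases before to 50 after a transcript start (GRCm38.p6, the assembly behind mm10) were at hand for 34 of the 41 genes. Both strands were searched for the E2F-type words TTTCCCGC, TTTCGCGC, TTTGCCGC and TTTGGCGC, and for the word CCAAT, which the factor NF-Y binds. The E2F words can overlap each other on opposite strands, and they do so in Mcm6 and Mcm5. An E2F word stood in the windows of 13 of the 34 genes (38.2%). The share was 2.6% of 27025 genes with a window, 3.29% of 17492 protein-coding ones and 3.8% of 13781 genes of the count table. CCAAT stood in 22 of 34 (64.7%), against 41.1%, 42.3% and 42.3% of these sets. A word is a description of the sequence and not a bound site. The lines give the bases before the start, 5′ to 3′, with E2F words in capitals for Mcm6, Mcm5 and Orc1 and CCAAT in capitals for Rrm2 and Mcm10. The Orc1 line stops short of the start because annotated transcripts begin there.
Mcm6, chr1:128359706-128359955, minus strand: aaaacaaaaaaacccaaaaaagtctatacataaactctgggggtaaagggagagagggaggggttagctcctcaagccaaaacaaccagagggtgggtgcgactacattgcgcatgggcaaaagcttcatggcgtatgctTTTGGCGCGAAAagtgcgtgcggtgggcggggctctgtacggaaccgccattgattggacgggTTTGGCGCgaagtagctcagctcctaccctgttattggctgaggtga
Mcm5, chr8:75109259-75109508, plus strand: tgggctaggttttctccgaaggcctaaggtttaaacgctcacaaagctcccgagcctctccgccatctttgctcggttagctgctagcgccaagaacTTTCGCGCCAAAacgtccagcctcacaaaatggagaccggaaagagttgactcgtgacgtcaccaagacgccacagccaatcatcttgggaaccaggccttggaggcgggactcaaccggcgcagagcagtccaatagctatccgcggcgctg
Orc1, chr4:108579204-108579434, plus strand: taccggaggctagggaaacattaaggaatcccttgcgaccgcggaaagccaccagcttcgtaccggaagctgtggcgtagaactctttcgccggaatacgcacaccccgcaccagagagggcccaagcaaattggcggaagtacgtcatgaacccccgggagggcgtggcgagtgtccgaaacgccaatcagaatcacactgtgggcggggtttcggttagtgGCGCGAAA
Rrm2, chr12:24708004-24708253, plus strand: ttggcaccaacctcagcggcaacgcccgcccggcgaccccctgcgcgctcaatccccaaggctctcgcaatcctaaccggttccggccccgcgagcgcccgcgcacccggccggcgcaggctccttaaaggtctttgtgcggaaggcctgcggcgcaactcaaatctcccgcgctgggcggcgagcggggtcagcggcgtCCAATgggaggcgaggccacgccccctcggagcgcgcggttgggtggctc
Mcm10, chr2:5012792-5013041, minus strand: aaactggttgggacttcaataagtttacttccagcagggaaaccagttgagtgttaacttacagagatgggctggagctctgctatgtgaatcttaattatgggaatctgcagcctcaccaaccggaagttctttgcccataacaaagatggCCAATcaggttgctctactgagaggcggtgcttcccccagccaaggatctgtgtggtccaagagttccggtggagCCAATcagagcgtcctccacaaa

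In Mcm6 a pair of overlapping words began 110 and 106 bases before the start and another word 47 bases before it. In Mcm5, the lowest subunit of the ring, a similar overlapping pair began 153 and 149 bases before the start. Orc1 held 1 word 27 bases before the transcript start of its window, and Cdc6 held 1 word 138 bases before that of its own. The windows of Orc1 and Cdc6 lie inside the gene spans given above. Thus the words stood in the windows of genes that were even between libraries, such as Mcm6, and of genes that were not, such as Orc1 and Cdc6. Replicate 1 stood at a median of 1.27 times the mean of the other libraries for the 13 genes with a word, and at 1.55 times for the 21 without. The Rrm2 window held CCAAT once, 50 bases before the start, and the Mcm10 window held it 3 times, of which 2 stand in the printed bases, 98 and 23 bases before the start. No E2F word was found in the windows of Rrm2 and Mcm10, which says only that these letters are not there.

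The replicative polymerases and primase stood in the middle of the list. Pola1, the catalytic subunit of the polymerase that starts each new strand, was read at 65.0, 41.5 and 44.4 CPM (9.40 ± 2.40 CPM per kilobase). Pold1, which encodes the catalytic subunit of the lagging strand polymerase, was read at 24.0, 45.8 and 36.6 CPM (10.4 ± 3.20), lowest in replicate 1. Pole, its counterpart on the leading strand, was read at 30.2, 27.5 and 16.3 CPM (3.46 ± 1.03). Per kilobase, Pold1 exceeded Pole 1.65, 3.46 and 4.67 times. The primase subunits were read at 13.3, 9.63 and 15.0 CPM (Prim1, catalytic) and 18.3, 16.5 and 17.1 CPM (Prim2). They differed by less than the spread between libraries per kilobase, with 8.24 ± 1.78 and 8.92 ± 0.474. Pola1 (edgeR adjusted p = 0.970) and Pold1 (0.0552) were not separated from 50 CPM, and the other 3 lay below it. Pold1 lay below 50 CPM in limma, with robust empirical Bayes, under both other filters and without replicate 2 (adjusted p of 0.00592 to 0.0441).

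At the sliding clamp, Pcna was high for its length and uneven, and the large loader subunit Rfc1 was high and even. Pcna, the ring that tethers polymerases to DNA, was read at 40.7, 15.8 and 30.9 CPM (23.1 ± 9.97 CPM per kilobase), lowest in replicate 2. Rfc1 was read at 123, 115 and 122 CPM (25.4 ± 0.970). Per kilobase, the small subunits of the same loader that are in the list were lower in every library. Another small subunit gene, Rfc2, is outside the list and stood nearer to Rfc1, at 19.4, 22.1 and 14.6 CPM per kilobase. Rfc5 was read at 14.9, 10.6 and 10.6 CPM, Rfc4 at 11.5, 6.78 and 8.13 CPM and Rfc3 at 7.29, 3.14 and 5.62 CPM. Rfc1 stood 4.35, 9.41 and 5.58 times above Rfc3 per kilobase. Rfc1 lay above 50 CPM (edgeR adjusted p = 7.69e-05) and the other 4 of this role group below it. Of these, Pcna (0.0292) did not pass without replicate 3 (0.0597) or with edgeR's own filter (0.0664).

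The 2 single-strand binding protein genes of the list, Rpa1 and Rpa2, were the steadiest role group, with the highest library at a median of 1.10 times the lowest. Another RPA subunit gene, Rpa3, is outside the list. It was read at 6.13, 2.35 and 5.09 CPM, with its highest library at 2.60 times its lowest. Rpa1, the large subunit, which serves repair as well as replication, was read at 142, 144 and 141 CPM (45.8 ± 0.496 CPM per kilobase), the highest mean of the list and the 91.8th percentile of genes tested. Rpa2 was read at 23.5, 20.8 and 24.6 CPM (12.9 ± 1.11). Rpa1 lay above 50 CPM (edgeR adjusted p = 2.08e-05) and Rpa2 below it (0.00113), and per kilobase Rpa1 exceeded Rpa2 3.47, 3.97 and 3.28 times. Of the enzymes that finish lagging strand fragments, the flap nuclease gene Fen1 was read at 44.0, 28.0 and 20.5 CPM and the ligase gene Lig1 at 46.9, 35.3 and 28.4 CPM. Both were highest in replicate 1 and lowest in replicate 3. Fen1 lay below 50 CPM (0.0277), but not without replicate 3 (0.195) or with edgeR's own filter (0.0601). Lig1 was not separated from it (0.0560), but lay below it without replicate 1, in limma, with robust empirical Bayes and with no filter (adjusted p of 0.0144 to 0.0421). An antisense transcript, Gm10143, overlaps 78.8% of the Fen1 exon bases.

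The deoxynucleotide genes were the role group most unlike between libraries, with the highest library at a median of 2.85 times the lowest, and all 4 were highest in replicate 1. Rrm2, the small subunit of ribonucleotide reductase, which is made in cycling cells, was read at 37.5, 3.35 and 8.35 CPM. Its Poisson intervals were 33.7 to 41.6, 2.46 to 4.46 and 6.87 to 10.1 CPM, and none overlapped. Rrm2 (Entrez gene 20135) spans chromosome 12, 24708254 to 24714146. Rrm1, the large subunit, was read at 82.6, 32.2 and 40.5 CPM. The ratio of Rrm1 to Rrm2 per kilobase was 1.20 in replicate 1, 5.25 in replicate 2 and 2.64 in replicate 3, so the subunits of 1 enzyme stood nearest each other in replicate 1. Thymidylate synthase, Tyms, was read at 13.5, 6.06 and 6.00 CPM, and thymidine kinase, Tk1, at 6.02, 1.93 and 2.43 CPM. Rrm1 was not separated from 50 CPM (edgeR adjusted p = 0.861), and it lay below 50 CPM without replicate 1 (0.0449). Rrm2 lay below 50 CPM (0.0408), a call that ended with robust empirical Bayes (0.267), with library totals alone (0.0662) and with edgeR's own filter (0.103). Tk1 lay above 1 CPM (0.00458), but not without replicate 1 (0.0760).

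The chromatin assembly genes encode the large and middle subunits of CAF-1, which places histones behind the fork. Chaf1a was read at 17.0, 10.1 and 5.32 CPM and Chaf1b at 14.3, 13.6 and 7.52 CPM. Both were highest in replicate 1, lowest in replicate 3 and below 50 CPM (edgeR adjusted p = 0.00157 and 6.26e-04). Exons of Ubxn6 on the opposite strand overlap 52.5% of the Chaf1a exon bases, taken over 8854 annotated bases where the deposited length is 3308.

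Across the list, 29 of 41 genes were highest in replicate 1, 5 in replicate 2 and 7 in replicate 3. Of all genes tested, 45.2% were highest in replicate 1, 32% in replicate 2 and 22.8% in replicate 3. Of the 10625 genes above 1 CPM, 27% were highest there, 43.8% in replicate 2 and 29.2% in replicate 3. In 9 of the 41 genes, replicate 1 exceeded the mean of the others by over 2 times, against 8.45% of the genes above 1 CPM. These were Mcm10 (7.88 times), Rrm2 (6.41), Cdc6 (4.47), Orc1 (3.60), Tk1 (2.77), Gins1 (2.37), Rrm1 (2.27), Tyms (2.24) and Chaf1a (2.21). The first 4 exceeded the 95th percentile of the genes above 1 CPM, 3.04 times. At the other end stood Pold1 (0.582) and Cdt1 (0.640), near the 5th percentile of 0.566. With 1 library each, these ratios have no test. The share over 2 times was not taken over all genes tested. Gins1 lies outside the genes above 1 CPM, and Mcm10, Orc1 and Tk1 did not pass 1 CPM without replicate 1. The median ratio of replicate 1 to the others was 1.39 in the list, 1.06 in all genes tested and 0.897 in the genes above 1 CPM. For 16 of 41 genes the highest library was under 1.5 times the lowest, against 51.7% of the genes above 1 CPM, and for 13 it was over 2 times, against 21.1%. These shares, too, were not taken over all genes tested. The median ratio of highest to lowest library was 1.65 in the list, above the 1.48 of the genes above 1 CPM and below the 1.77 of all genes tested.

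**Figure D3:**
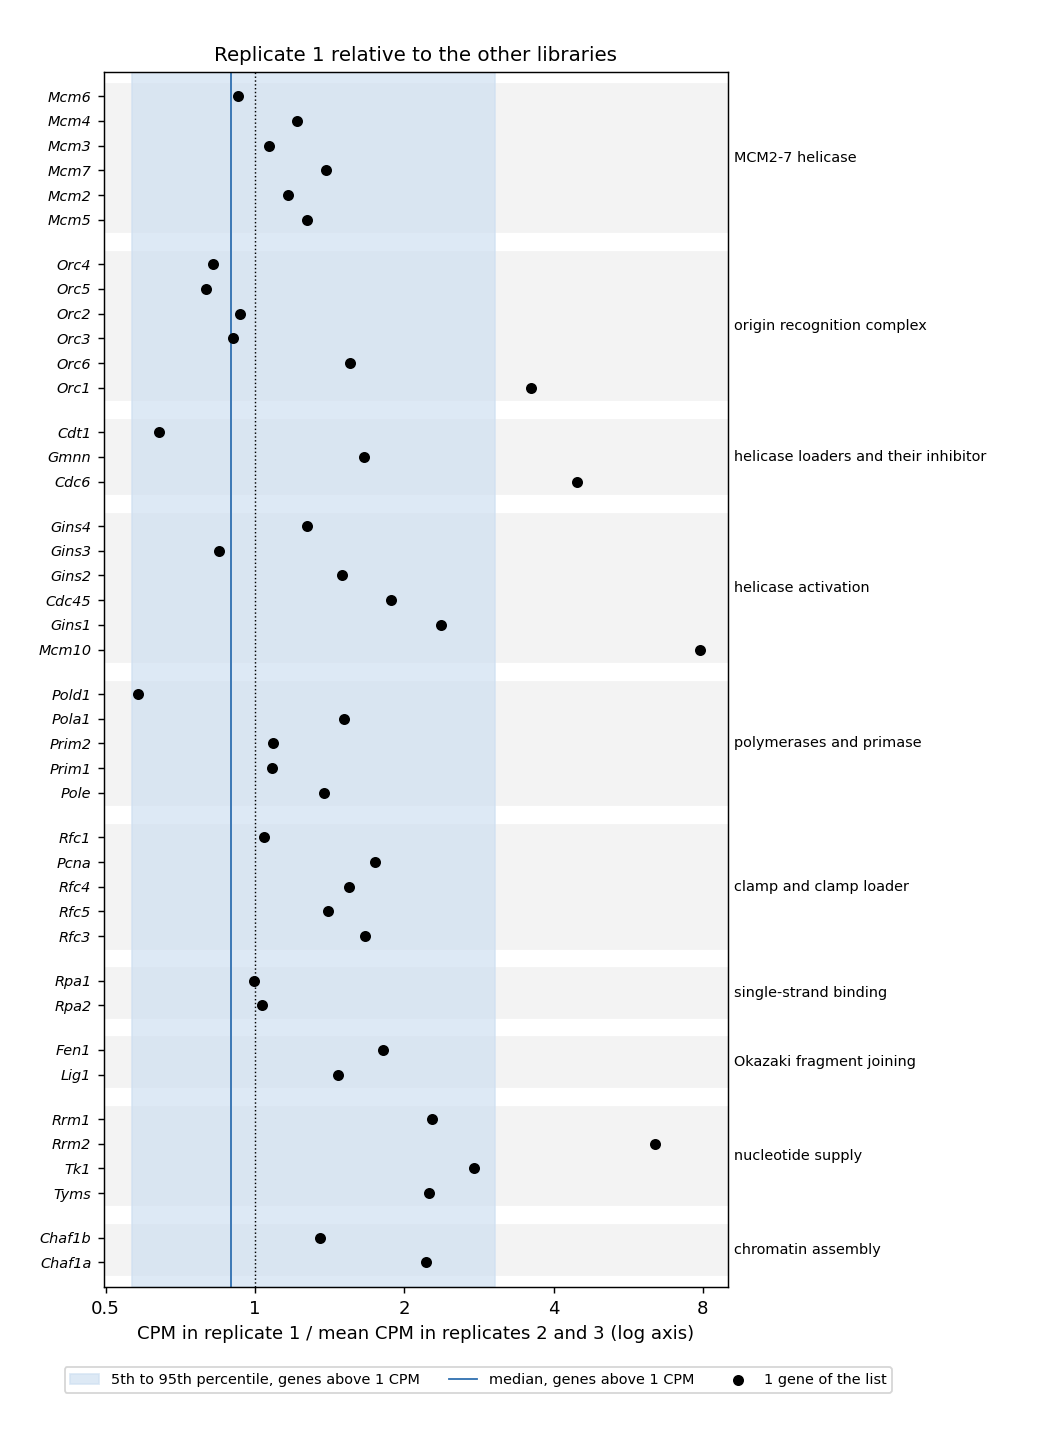
CPM in replicate 1 divided by the mean CPM in replicates 2 and 3 (log axis) for each of the 41 genes, 1 point per gene. The blue band covers the 5th to 95th percentile of the genes above 1 CPM (0.566 to 3.04) and the blue line their median (0.897). Mcm10, Rrm2, Cdc6 and Orc1 lie to the right of the band, and the MCM2-7 ring lies between 0.925 and 1.39.

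Other genes of the same pathway, from lists that exclude the 41, were set beside them. In the firing and fork protection list, 14 of 14 lay above 1 CPM, 3 above and 9 below 50 CPM. Mcmbp, which binds free MCM proteins, was read at 121, 186 and 167 CPM and Topbp1, a scaffold of firing and checkpoint signals, at 144, 178 and 162 CPM. Ticrr, which brings Cdc45 to origins, was read at 14.5, 4.92 and 2.43 CPM and the helicase gene Recql4 at 8.14, 3.00 and 3.19 CPM. The median ratio of replicate 1 to the others was 1.05 in this list. Of 11 other polymerase, loader and RPA subunits, 11 lay above 1 CPM, 9 lay below 50 CPM and 2 were not separated from it. The highest per kilobase were the small subunits Pole3 (16.4, 14.8 and 16.6 CPM, 26.4 ± 1.64 CPM per kilobase) and Pold4 (16.9, 18.9 and 16.7 CPM). The lowest were Atad5, which unloads the clamp (34.9, 24.7 and 28.0 CPM, 4.02 ± 0.710 CPM per kilobase), and Chtf18, a subunit of another clamp loader (9.19, 5.63 and 3.49 CPM). The median ratio there was 1.05.

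Among 9 other nucleotide genes, Samhd1 stood far above the rest. It encodes an enzyme that degrades deoxynucleotides and is abundant in resting leukocytes, and it was read at 570, 809 and 726 CPM (175 ± 30.3 CPM per kilobase). Per kilobase it exceeded Rrm1 and Rrm2 in every library. Tk2, the mitochondrial thymidine kinase, was read at 57.8, 66.0 and 51.6 CPM and Dctd, a deaminase of deoxycytidylate, at 3.59, 7.06 and 4.48 CPM. All 9 lay above 1 CPM, 1 above and 5 below 50 CPM, and the median ratio was 0.897. Of 15 genes for E2F factors and their partners, 15 lay above 1 CPM, 5 above and 8 below 50 CPM. The highest were E2f4 (100.3, 118 and 99.3 CPM), which acts with pocket proteins in resting cells, and the pocket protein gene Rbl2 (203, 238 and 220 CPM). The activator E2f1 was read at 3.80, 4.35 and 2.73 CPM and E2f7, a repressor made in S phase, at 9.51, 3.49 and 1.22 CPM. The median ratio in that list was 1.17. Of 4 histone chaperones, Nasp was read at 91.4, 70.5 and 109 CPM, Hat1 at 37.0, 28.1 and 37.7, Asf1a at 24.5, 18.3 and 21.8 and Asf1b at 12.0, 3.78 and 4.56. All 4 lay above 1 CPM, 1 above and 3 below 50 CPM, with a median ratio of 1.17.

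In replicate 1 lay the highest value of all 12 mitosis genes, with a median ratio of 5.64 to the mean of the others and a range of 3.22 to 10.7. Mki67, the common marker of cycling cells, was read at 1009, 108 and 173 CPM and Top2a at 187, 30.2 and 70.3 CPM. Ccnb1 was read at 5.71, 1.50 and 2.05 CPM and Bub1 at 7.82, 0.856 and 1.37 CPM. The lowest of these ratios, 3.22, exceeded the highest of the MCM2-7 ring, 1.39. All 12 lay above 1 CPM, 2 above and 7 below 50 CPM.

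Markers of several cell types moved with replicate 1. All 8 measured erythroid markers were highest there, with summed levels of 4983, 73.8 and 354 CPM in replicates 1, 2 and 3, and Epor was at 0 in replicate 2. All 6 macrophage markers were highest there (804, 77.1 and 189 CPM in sum), with Vsig4 at 0 in replicate 2, as were all 6 B cell markers (304, 119 and 163 CPM). The sums of the other lists differed from this order. T cell markers were highest in replicates 2 and 3 for 4 genes each. The sums were 26.8, 947 and 258 CPM for the 2 CD8 genes, 58.3, 494 and 199 CPM for 5 NK genes, and 170, 205 and 280 CPM for 4 plasma cell genes. They were 614, 904 and 356 CPM for 6 monocyte genes, 161, 64.5 and 651 CPM for 5 neutrophil genes with Ly6g at 0 in replicates 1 and 2, and 118, 232 and 145 CPM for 5 progenitor genes with Cd34 at 0 in replicate 2. Single genes could differ from these sums, with 3 of 6 monocyte, 2 of 5 progenitor and 1 of 4 plasma cell genes highest in replicate 1. The olfactory receptor background was also highest in replicate 1. The part of these cell types, of that background and of the lower depth of replicate 1 in the levels of Mcm10, Rrm2, Cdc6 and Orc1 was not tested.

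**Figure D4:**
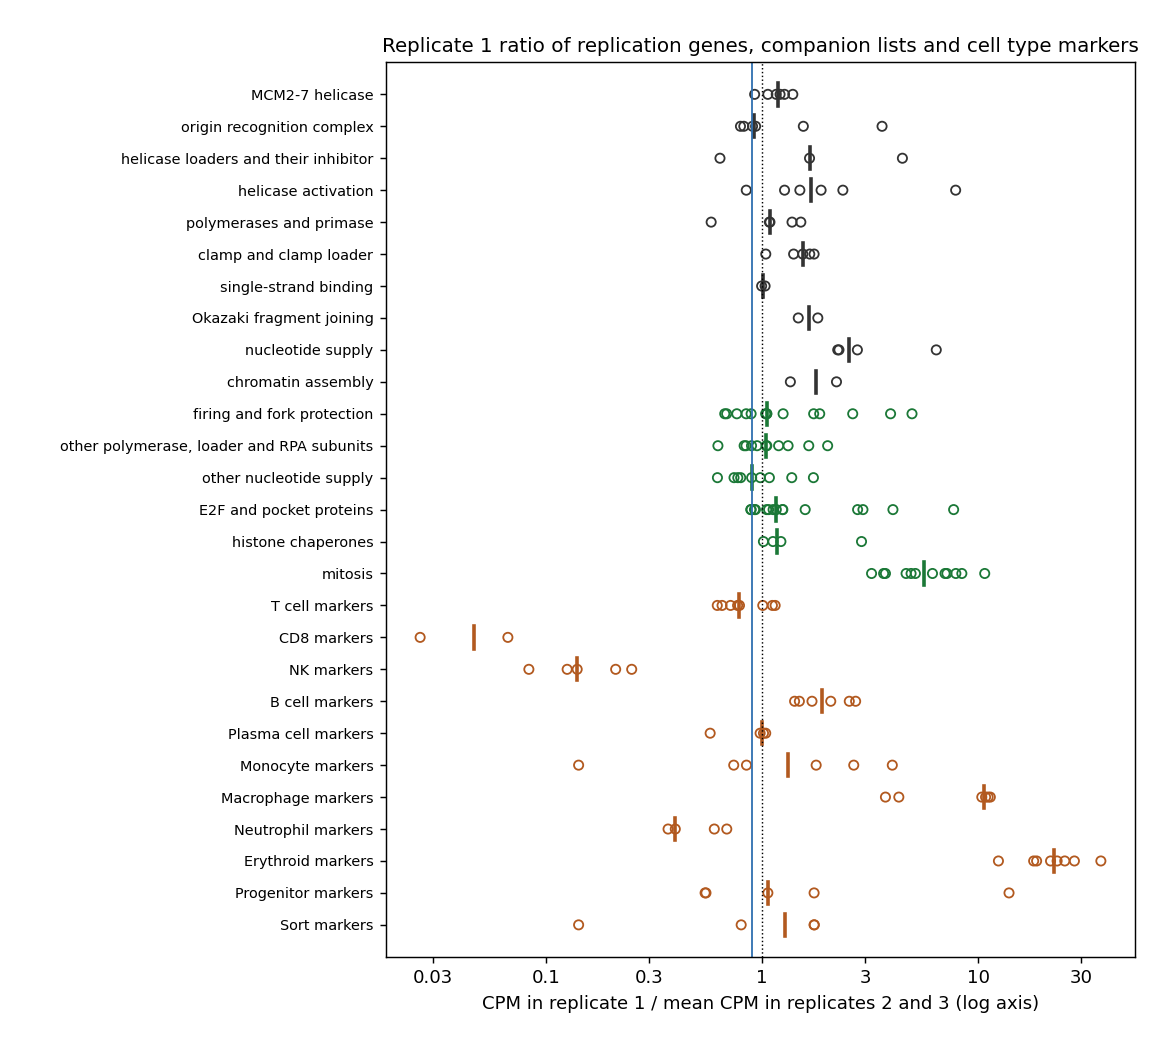
CPM in replicate 1 divided by the mean CPM in replicates 2 and 3 (log axis), with 1 open circle per gene and a bar at each list's median, for the 10 role groups (black), the companion lists (green) and the cell type markers (brown). A gene at 0 in replicate 1 (Ly6g) has no circle, the dotted line marks 1 and the blue line the median of the genes above 1 CPM. The mitosis (5.64), macrophage (10.6) and erythroid (22.4) medians lie far to the right and the MCM2-7 median (1.19) near 1.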

How the data were processed

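RNA from the sorted cells was made into libraries from 8 ng with a stranded total RNA kit for low inputs, per the labels' protocols. Per the submitters' processing notes, the tools were bcl2fastq, STAR 2.75, featureCounts and DESeq2 1.18.1 with mm10, with no role given for each. The authors deposited whole-number counts per gene, with a gene length in bases in a column of other values that the authors deposited beside them. The counts were used as deposited. How the gene length was defined is not stated in the labels, and all levels per kilobase rest on it. Library factors (TMM) of 1.04, 1.01 and 0.950 came from the 15490 genes with a summed count of at least 10, in edgeR 4.0.16 on R 4.3.3. A count of 0 allows up to 3 counts, or 0.317, 0.214 and 0.228 CPM in replicates 1, 2 and 3.

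The quasi-likelihood F-test of edgeR compared each gene's level with 1 CPM and 50 CPM, two-sided, on the whole table, with a Benjamini-Hochberg adjustment across the genes tested and a threshold of 0.05. Because edgeR's test function takes no design with an intercept alone, its F statistic was computed from the fitted deviances, with the reference level in the offsets. The computation was tested on simulated data, with 20 genes set at each level. Against 1 CPM, it called 40% of genes set at 2 times the reference, 90% at 4 times and 0% at 0.5 times. It can thus miss levels near 1 CPM. Against 50 CPM, it called 100% of genes at 2 times and at 0.5 times. Each simulated gene had the same level in all libraries and the fitted spread of genes at that level. The shares called therefore do not hold for genes that are more uneven between libraries, such as Rrm2. Of 40 genes set at the reference itself, 2.5% were called at 1 CPM and 0% at 50 CPM. Alternatives were DESeq2 1.42.0, limma 3.58.1, other normalizations and filters, and leaving out each library.

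The 41 members and the lists were chosen with earlier results of these data known. The text names all members and the 2 highest and 2 lowest genes per kilobase of each companion list (all 4 histone chaperones), except 1 gene that is not reported here. Marker genes named singly, and Rpa3 and Rfc2 of the companion lists, were chosen after their values were seen. Coordinates count from 1 and come from RefSeq genes of GRCm38.p6, where all 41 matched by Entrez identifier, and exon overlaps from GENCODE vM21. The overlaps are shares of the merged exons of all transcripts there. These can be longer than the deposited length, so an overlap may lie outside the counted bases. Intervals are 95% exact Poisson intervals. The Hbb-bt and Ahsp genes of the erythroid list were not analysed here.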

Additional observations from a re-analysis of the deposited data

How the results depend on the processing

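Of 41 genes, 40 lay above 1 CPM in every alternative except limma (39) and the fit without replicate 1 (37 to 40 over the fits that leave out 1 library each). The 8 genes above 50 CPM numbered 7 to 8 over all alternatives, and the 26 below it 23 to 28. Of all genes tested, the number below 50 CPM was 10336, but 6202 with edgeR's own expression filter, which tests fewer genes, and 5513 to 10588 when 1 library was left out, lowest without replicate 3; the cause of that fall was not tested. Rrm1 stood at a log2 level of 0.05 over 50 CPM with all libraries and at -0.49 to 0.29 when 1 library was left out, lowest without replicate 1, where it lay below 50 CPM (edgeR adjusted p = 0.0449, and 0.0449 to 0.873 over its alternatives). The count of genes highest in replicate 1 was 29 with TMM and DESeq2 factors and 31 with library totals alone. The MCM2-7 median ran from 21.5 to 26.7 CPM per kilobase and the median of the origin recognition complex from 11.6 to 11.9 over their alternatives. No paired analysis was possible because the series has 1 group. Depth limits the lowest genes, since Mcm10 rested on 17 and 19 counts and Gins1 on 12 to 31.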
